A study of Mus musculus with 6 samples.

Results

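Kupffer cells of mouse liver were taken from single-cell RNA-seq of CD45+ cells sorted 3 days after tumor cell injection. A cell was counted as a member where the mean deposited score of Clec4f, Vsig4, Cd5l and C1qa was above 1 and that of the endothelial genes Kdr and Ptprb was below 1. The rule gave 679 members among 12593 cells of 4 libraries: 29 of 1803 in the adjacent Ctrl library, 101 of 542 in the adjacent Tim3-KD library, 281 of 5106 in the micrometastasis Ctrl library and 268 of 5142 in the micrometastasis Tim3-KD library. The whole series held 23008 cells in 6 libraries, of which the other two were made from macrometastasis at day 12.

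The mice were Balb/c and received 4T07 mammary tumor cells, spelled 4TO7 in part of the records, into the heart, either control cells (Ctrl) or cells with a Tim3 knockdown (Tim3-KD). Micrometastasis was a liver piece that gave tumor bioluminescence but showed nothing by eye, and adjacent tissue was a liver piece from the same day labelled as holding no tumor. Cells of 2 mice were pooled for each library, and no group had a second one. The age of the mice was not given in the sources used here. Only the injected tumor cells carried the knockdown, and the sort for CD45+ discards these. The host Kupffer cells therefore had an unmodified Tim3 gene in all 4 groups, and no gene of theirs checks the knockdown label. Havcr2, the gene of TIM3, was low in the members, with 7 UMIs in the adjacent Ctrl, 5 in the adjacent Tim3-KD, 29 in the micrometastasis Ctrl and 12 in the micrometastasis Tim3-KD library. In micrometastasis it stood at 11.3 and 4.71 CPM and was called lower with Tim3-KD by the rule given below, at a ratio of 0.415 (0.193 to 0.839).

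Kupffer cells are the resident macrophages of the liver. They sit inside the sinusoids, the liver's capillaries, with their processes through the endothelium, and they remove bacteria, dead cells, old red blood cells and circulating tumor cells from portal blood. Their identity genes include the lectin Clec4f, the complement receptor Vsig4, the phosphatidylserine receptor Timd4 and the secreted Cd5l, and it is held in place by signals from endothelial, stellate and hepatic cells such as Notch and TGF-beta ligands. In disturbed liver, blood monocytes can enter the niche and take up these genes over days, with Timd4 the slowest of them.

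The depth of the members was high for droplet data. Their median UMIs (unique molecular identifiers, the counted RNA molecules) were 12853 in the adjacent Ctrl, 10097 in the adjacent Tim3-KD, 8702 in the micrometastasis Ctrl and 9104.5 in the micrometastasis Tim3-KD library. The summed UMIs of the members were 374782, 1471712, 2557622 and 2548090 in the same order, so values of the adjacent Ctrl library rest on the fewest molecules and the fewest cells. Levels are given as counts per 1000000 UMIs (CPM) of a gene, over all members of a library. A ratio is that of 2 such levels, with a 95% interval from the exact conditional binomial test of the summed UMIs. With 1 library per group the intervals cover counting error only, cells are not replicates, no test between groups was possible, and a difference between groups cannot be told apart from a difference between 2 pools of mice or 2 sorts. Among day-3 libraries, 0 to 7 cell barcodes were shared per pair, and 0 were shared between members.

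Kupffer marker genes that the rule did not use matched the name in all 4 libraries, apart from Marco. Timd4 stood at 760, 729, 574 and 520 CPM, in the order adjacent Ctrl, adjacent Tim3-KD, micrometastasis Ctrl and micrometastasis Tim3-KD, which is kept below wherever 4 values are given without names. Members with at least 1 UMI of Timd4 made up 93.1%, 94.1%, 91.8% and 93.3%, and the level in B and T cells of the same libraries, which should lack it, was 0.370, 2.12, 0.966 and 0.286 CPM. Folr2, a folate receptor of resident macrophages, stood at 995, 774, 636 and 520 CPM. Fcna, a ficolin that recognizes sugars on microbes, stood at 1822, 2538, 1986 and 1813 CPM, and Clec1b, a lectin receptor, at 448, 380, 492 and 409 CPM. The monocyte genes Ccr2 and Ly6c2 reached at most 29.4 and 10.7 CPM, both in the adjacent Ctrl library. The B and T cells stood at 112 to 141 and 158 to 325 CPM, and no level in monocytes themselves was taken. Other genes of the monocyte list were higher, with Plac8 at 504 CPM in the adjacent Ctrl, Cx3cr1 at 421 in the adjacent Tim3-KD and Nr4a1 at 362 in the micrometastasis Ctrl library.

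The 4 genes of the rule were, as a description, at 6604, 7101, 5294 and 4285 CPM for Clec4f and at 7463, 6708, 8007 and 7380 CPM for C1qa, a subunit of complement C1q. The median of the members' mean marker score was 4.00, 3.91, 4.12 and 4.06. Just inside the limit the lowest members scored 1.36, 2.46, 1.04 and 1.01, and just outside it the highest cells scored 0.827, 0.617, 0.876 and 0.984. The endothelial limit was not applied to the cells outside. On its inner side 1, 0, 13 and 20 members scored below 2, and on its outer side 20, 60, 273 and 256 other cells scored between 0 and 1. The limit on Kdr and Ptprb removed 3, 8, 12 and 7 cells.

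The share of Kupffer cells differed between the adjacent libraries and was close between the micrometastasis libraries. In adjacent tissue they were 1.61% of CD45+ cells (95% Clopper-Pearson interval 1.08 to 2.30) with Ctrl and 18.6% (15.4 to 22.2) with Tim3-KD, a difference of 17.0 percentage points (Newcombe interval 13.9 to 20.6). In micrometastasis they were 5.50% (4.89 to 6.16) and 5.21% (4.62 to 5.86), a difference of -0.291 points (-1.17 to 0.582). Without members that held UMIs of other cells' markers, most of them hit by the hepatocyte list led by Trf, 11 of 1803 and 29 of 542 cells were left in adjacent tissue, a difference of 4.74 points (3.07 to 6.98), and in micrometastasis the difference was -2.52 points (-3.19 to -1.86). A share is a part of what was sorted. Among cells without those that carried neutrophil genes, the shares were 3.54% and 19.3% in adjacent tissue and 9.16% and 11.8% in micrometastasis, where the difference became 2.66 points (1.00 to 4.36). Fewer Kupffer cells and more of the other cells cannot be told apart in these shares, and the micrometastasis difference has no direction that holds across the ways of counting.

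**Figure D1:**
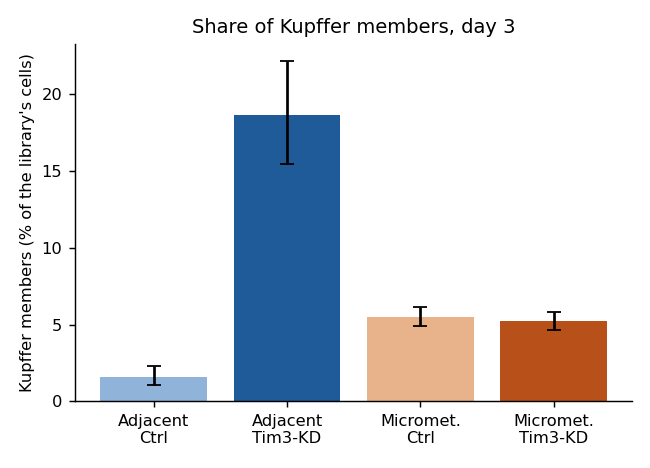
Kupffer cells as a percentage of the CD45+ cells of each library, with 95% Clopper-Pearson intervals that cover counting error only. The adjacent Tim3-KD library stands at 18.6% and the adjacent Ctrl library at 1.61%, with both micrometastasis libraries between them at 5.50% and 5.21%.

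The members were not uniform. Clustered among themselves they formed 5 clusters, described here by leading genes only, since these genes made the clusters. The largest, of 443 members, was led by Ddit4, Marco, Ccl9, Fbxo32 and Fkbp5, and held 62.1%, 10.9%, 71.9% and 79.1% of the members of the 4 libraries. A cluster of 122 members led by Lgals1, Snhg3, Fam3c, Igf1 and Ccnd1 had the lowest median depth, 5468.5 UMIs, and held 20.7%, 52.5%, 21.0% and 1.49%. A cluster of 44 members led by Cx3cr1, Igfbp4 and Exosc2 had the highest, 21487.5 UMIs, and held 6.90%, 35.6%, 2.14% and 0%. The adjacent Tim3-KD library therefore lay mostly in the 2 clusters that stand apart in depth, and the other 3 libraries mostly in the Marco cluster.

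The remaining 2 clusters went in part against the label. A cluster of 42 members was led by the neutrophil genes Cxcr2, Stfa2, Chil1, Mmp8 and Asprv1, with a UMI of Cxcr2 in 92.9% and of Clec4f in 97.6% of them. It held 2, 1, 8 and 31 members, and 13 of its 42 had a doublet score above 0.15, against 13 of the 443 in the Marco cluster. A cluster of 28 members with a median marker score of 1.53 was led by Ly6a, Saa3, Slpi, Fn1 and S100a4. All 28 had C1qa UMIs, but 7 had Clec4f, 10 Vsig4 and 16 Timd4, so the label rests on C1qa and Cd5l there. It held 1, 0, 6 and 21 members. Both clusters were thus largest in the micrometastasis Tim3-KD library, at 11.6% and 7.84% of its members, and values without them are given below where they change a call or a ratio by over 1.5 times.

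**Figure D2:**
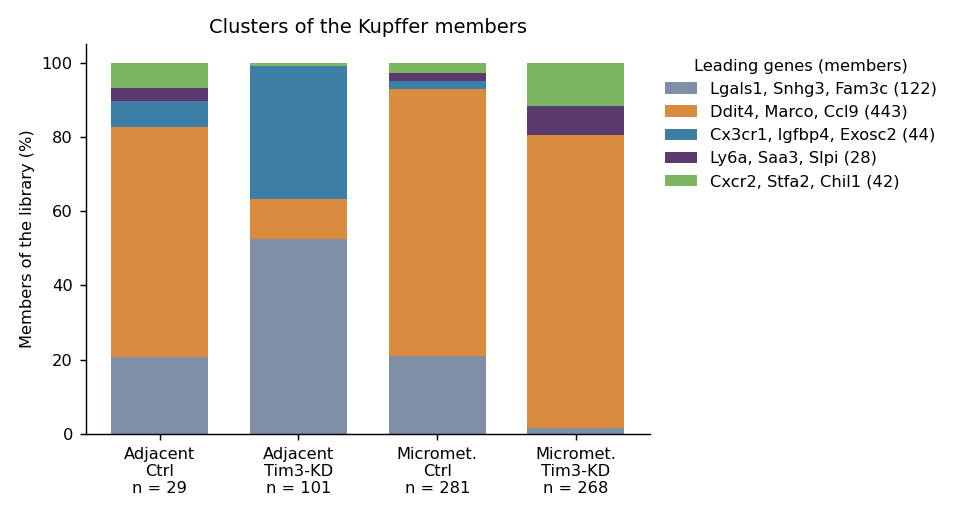
The 5 clusters of Kupffer cells as percentages of the members of each library. The Marco cluster holds 62.1%, 71.9% and 79.1% of the adjacent Ctrl, micrometastasis Ctrl and micrometastasis Tim3-KD members and 10.9% of the adjacent Tim3-KD members.

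Genes of other cell types were also measured in the members. The summed level of the 9 measured hepatocyte genes in adjacent tissue was 1532 CPM with the Ctrl line and 1888 CPM with Tim3-KD, and that of the 5 measured in micrometastasis 1168 and 1529 CPM, with Trf the highest in each. The other cells of the 4 libraries stood lower for this list, at 95.2, 120, 134 and 92.2 CPM. Trf stood at 1009, 1275, 1042 and 1133 CPM, so that most of this sum was a gene that had a UMI in 95.4% to 100% of members. Alb, the defining hepatocyte gene, stood at 253, 319, 77.4 and 257 CPM. The neutrophil list summed to 422, 82.9, 367 and 1100 CPM in the members, against 9348, 347, 7463 and 6818 CPM in the other cells of the same libraries, and 7, 57, 117 and 120 members had none of its UMIs. Without the 2 clusters it summed to 154, 58.0, 102 and 86.6 CPM. The monocyte list summed to 1091, 1103, 739 and 794 CPM, against 3347, 1628, 1918 and 1991 CPM in the other cells. For monocytes 14 genes were measured in adjacent tissue and 11 in micrometastasis, and for neutrophils 14 and 13. Sums of these lists are therefore not comparable between the sites. Plac8, at 504 CPM with Ctrl and 81.5 with Tim3-KD, counts in the adjacent monocyte sums only. The endothelial list summed to 651, 576, 507 and 497 CPM, against 102, 1086, 289 and 114 CPM in the other cells. The members stood at 32.0, 53.7, 64.1 and 54.2 CPM for the T cell list and at 32.0, 102, 124 and 25.9 CPM for the B cell list. The part of this RNA in the differences below was not tested, beyond the values given without the clusters.

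The comparison of micrometastasis Tim3-KD with Ctrl asks how Kupffer cells of liver pieces with micrometastasis differ when the tumor cells carry less TIM3. Where in the piece a cell lay is not known. The scavenger receptor Marco, the chemokine Cxcl13, the receptor Mertk for dead cells and the glucocorticoid-induced Fkbp5 were higher with Tim3-KD by 2.5 times or more, and the metalloelastase Mmp12, the fatty acid receptor Cd36 and the early-response gene Egr2 were lower. Of 2084 genes tested (at least 30 UMIs over both libraries), 141 were called, 6.77%, with 108 higher, 5.18%, and 33 lower, 1.58%, where a gene was called if its ratio was at least 2 in either direction with an interval that leaves out 1. Without the neutrophil-gene and low-marker clusters 86 were called, of which 56 were among the 141, and the count was 83 without members holding markers of other cells and 54 at a minimum of 100 UMIs. Of 17 Kupffer identity genes tested, with the 4 genes of the rule left out, Marco was higher, none was lower, and their median ratio was 1.01 beside 1.06 over all tested genes. Clec4f, a gene of the rule, was at 0.809 times and Timd4 at 0.906 times its Ctrl level.

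Marco, a scavenger receptor for bacteria and particles (chr1:120474538-120505024, minus strand, GRCm38), stood at 208 CPM in the adjacent Ctrl, 103 in the adjacent Tim3-KD, 784 in the micrometastasis Ctrl and 1989 in the micrometastasis Tim3-KD library. The micrometastasis Tim3-KD library was the highest of the 4 and the adjacent Tim3-KD library the lowest. The micrometastasis ratio was 2.54 (2.41 to 2.67), and 2.98 without the 2 clusters. The difference was spread over many cells. A UMI was found in 49.5% of Ctrl and 72.0% of Tim3-KD members, and in 35.2% and 60.1% after each cell was thinned to 1500 UMIs, against at most 0.24% of B and T cells thinned alike. Per member, the median was 0 UMIs per 10000 with Ctrl and 9.86 with Tim3-KD, while the highest members overlapped, at 117 and 144.

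Cxcl13, the chemokine that draws B cells through Cxcr5 (chr5:95956951-95961068, plus strand), stood at 280, 149, 204 and 1441 CPM. The micrometastasis Tim3-KD library was at least 5 times above any other, with a ratio over its Ctrl of 7.06 (6.44 to 7.75), and 7.56 without the 2 clusters. After thinning, 20.3% of Ctrl and 57.5% of Tim3-KD members had a UMI, against at most 0.39% of B and T cells, and the 3 highest Tim3-KD members held 8.5% of its UMIs. In 3 Tim3-KD members Cxcl13 had reached the cap of the deposited scores, so its Tim3-KD level is a lower bound.

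Mertk, a receptor kinase with which macrophages take up dying cells (chr2:128698956-128802894, plus strand), stood at 248, 226, 291 and 786 CPM, close together in 3 libraries and higher in the micrometastasis Tim3-KD library. The ratio was 2.70 (2.48 to 2.94), and 2.94 without the clusters. In the Tim3-KD library Mertk was found in nearly all members, since 97.4% had a UMI, against 76.9% of Ctrl members. After thinning the shares were 65.7% and 28.5%, with at most 0.08% in B and T cells. The quartiles per member did not overlap, at 0.964 to 4.02 UMIs per 10000 with Ctrl and 5.44 to 10.8 with Tim3-KD. No member of either library had reached the cap.

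Fkbp5, a co-chaperone of the glucocorticoid receptor that glucocorticoids induce (chr17:28399094-28517527, minus strand), stood at 21.3, 19.0, 82.9 and 227 CPM, a ratio of 2.74 (2.34 to 3.22) in micrometastasis. It was not particular to these cells, since the B and T cells of the same libraries stood at 8.9, 5.2, 13.5 and 34.9 CPM, again highest in the micrometastasis Tim3-KD library. Cd163, the haptoglobin-haemoglobin receptor and another glucocorticoid-induced gene, stood at 582, 601, 752 and 1133 CPM, and its ratio of 1.51 (1.42 to 1.60) did not reach 2-fold.

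The same genes differed among members of the Marco cluster alone, which removes the unequal mix of clusters but not the choice of that cluster by its genes. Within it, 202 Ctrl and 212 Tim3-KD micrometastasis members stood at 796 and 2386 CPM for Marco, 197 and 1605 CPM for Cxcl13, 329 and 871 CPM for Mertk, and 96.0 and 256 CPM for Fkbp5. Timd4 was at 582 and 595 CPM there. Slc40a1, the iron exporter ferroportin, was at 1964 and 1428 CPM, and Cd83 at 297 and 133 CPM.

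**Figure D3:**
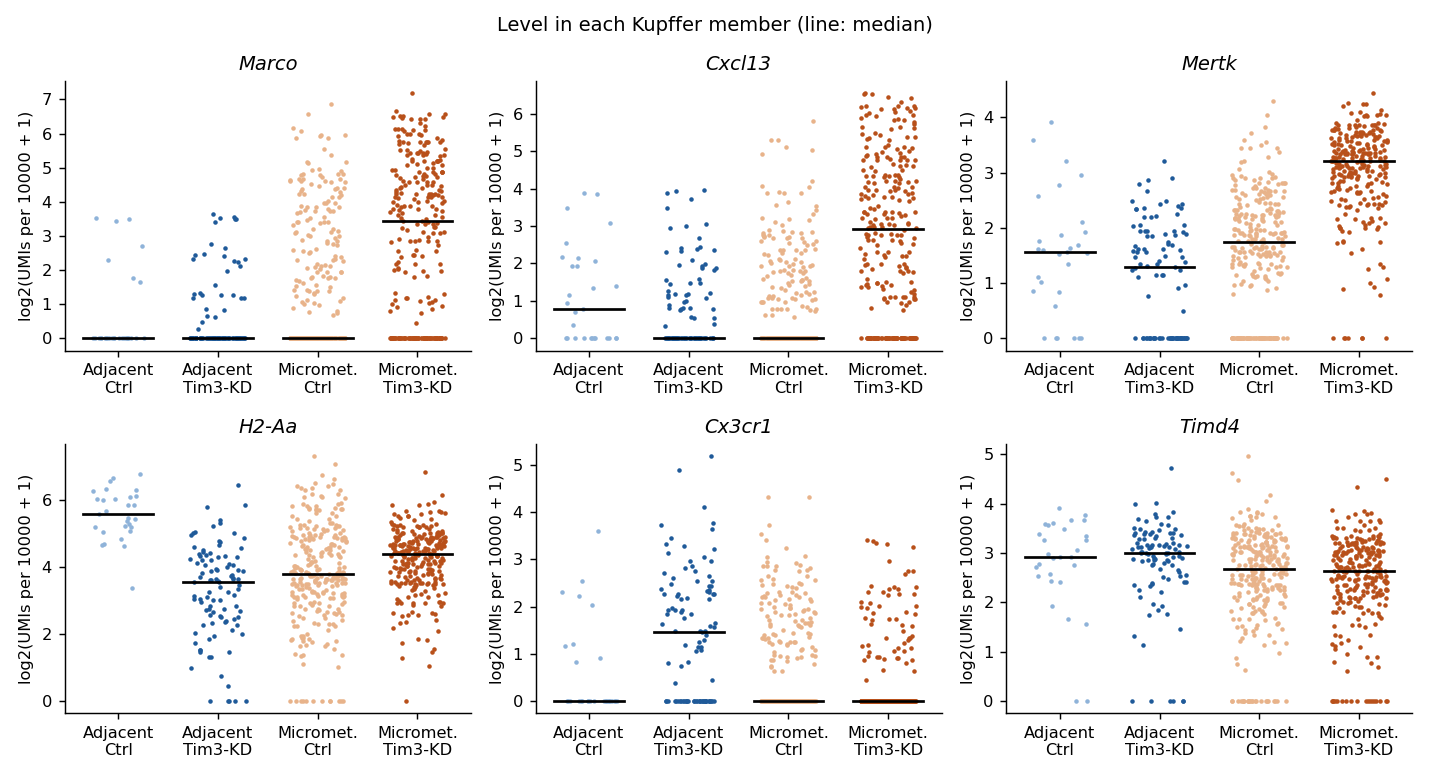
Level as log2 of UMIs per 10000 plus 1 in each Kupffer cell for Marco, Cxcl13, Mertk, H2-Aa, Cx3cr1 and Timd4 in the 4 day-3 libraries, where each point is 1 member and the line is the median. Before the log, Mertk has medians of 1.95, 1.45, 2.35 and 8.23, H2-Aa has medians of 47.5, 10.7, 12.8 and 20.0, and Timd4 has medians of 6.62, 7.04, 5.39 and 5.19.

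Cfb and several inflammatory genes were also higher with Tim3-KD in micrometastasis. Cfb, complement factor B of the alternative pathway and the 1 gene called of 12 complement genes, stood at 203, 59.1, 90.7 and 195 CPM, a ratio of 2.15 (1.83 to 2.52), while the median ratio of the complement list was 0.995. Il10, an anti-inflammatory cytokine, stood at 104, 95.8, 28.5 and 61.2 CPM, a ratio of 2.15 (1.61 to 2.87), with 7 Ctrl and 10 Tim3-KD members at the cap. Of 24 inflammatory genes, with a median ratio of 1.45, none was lower. The 8 higher ones were Il10, Csf1, Osm, Arg1, Acod1, Saa3, Slpi and Thbs1. Most of these rested on the 2 clusters. Saa3, an acute phase protein (chr7:46711998-46715700, minus strand), stood at 2.67, 0, 15.2 and 655 CPM, a ratio of 43.0 (31.3 to 60.7), and at 0.880 (0.414 to 1.81) without them. Acod1 went from 4.63 to 1.06, Slpi from 9.57 to 0.943, Osm from 2.41 to 0.660 and Thbs1 from 2.51 to 0.440, while Il10 stayed at 2.22 and Csf1 at 2.26 without a call. Arg1 had 37 UMIs with Ctrl and 205 with Tim3-KD, or 14.5 and 80.5 CPM, and its level without the 2 clusters is not given here.

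Several of the genes of highest ratio in micrometastasis are known from neutrophils and their precursors. The 8 highest were Saa3, Chil3, Cd177, Cebpe, Ltf, Serpinb1a, Upp1 and Olfm4, with ratios of up to 43.0, and the 3 members with most UMIs held 47.9% to 98.6% of each gene's Tim3-KD UMIs. Ltf, a protein of neutrophil granules, had a ratio of 20.5, and 0.840 without the 2 clusters. Of the 1670 Tim3-KD UMIs of Saa3, 1297 lay in the low-marker cluster and 359 in the neutrophil-gene cluster. Chil3, a chitinase-like protein of activated macrophages and neutrophils, kept 12 and 4 UMIs without the clusters, so that of the 8 genes only Saa3 and Ltf still reached the minimum of 30 UMIs, and neither was called. Of 12 neutrophil genes 9 were higher, and of 7 precursor genes 5, while without the clusters the neutrophil list summed to 102 CPM with Ctrl and 86.6 with Tim3-KD. Of 12 cell cycle genes, Top2a, Birc5, Ccnb2, Ube2c and Cenpf were higher and Tyms, on 30 and 14 UMIs, lower at 0.468 (0.230 to 0.911). Top2a had 8 and 44 UMIs, 84.1% of the latter in 3 members, and its ratio of 5.52 became 1.15 without the clusters. The Tim3-KD members outside them stood at 0.538 CPM for Birc5, Ccnb2 and Cenpf and at 0 for Ube2c.

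The lower genes in micrometastasis Tim3-KD rested less on those clusters. Mmp12, an elastase of macrophages, stood at 64.1 CPM with Ctrl and 5.10 with Tim3-KD, a ratio of 0.0796 (0.0415 to 0.140), and 18 Ctrl members had reached the cap, so the Ctrl level is a lower bound. Cd36, a scavenger receptor that takes up oxidized lipids, stood at 13.3, 31.3, 22.7 and 5.89 CPM, a ratio of 0.260 (0.137 to 0.464), and of 0.118 without the clusters. Trem2, a lipid receptor of scar- and lipid-associated macrophages, stood at 32.0, 68.6, 114 and 60.8 CPM, and its ratio of 0.533 (0.436 to 0.650) passed the 2-fold limit only without the clusters, at 0.338. Egr2 stood at 13.3, 15.6, 58.6 and 22.0 CPM, a ratio of 0.375 (0.271 to 0.513), and Nr4a2, another early-response factor, had a ratio of 0.368. The other 22 of 24 early-response and stress genes were not called.

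Some of the lowest genes came from a few members. Gzma, a granule protease of NK and T cells, had 77 UMIs in the Ctrl members, 98.7% of them in 3 cells, and 0 in the Tim3-KD members. Ccl5, a chemokine of lymphocytes and macrophages, had 93.4% of its Ctrl UMIs in 3 members at a ratio of 0.139 (0.0874 to 0.211). Cd79a, a B cell receptor subunit, had 37 and 0 UMIs. B3gnt2, an enzyme of sugar chains, had 39 and 1 UMIs in the members and was at 28.4 and 0.6 CPM in B and T cells of the same libraries, so its difference was shared by other cells. Slc40a1 stood at 1851 and 1248 CPM, a ratio of 0.674, and none of 8 iron genes was called (median ratio 0.810). Neither were any of 10 lysosomal genes nor any of 9 antigen presentation genes (median 0.982).

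**Figure D4:**
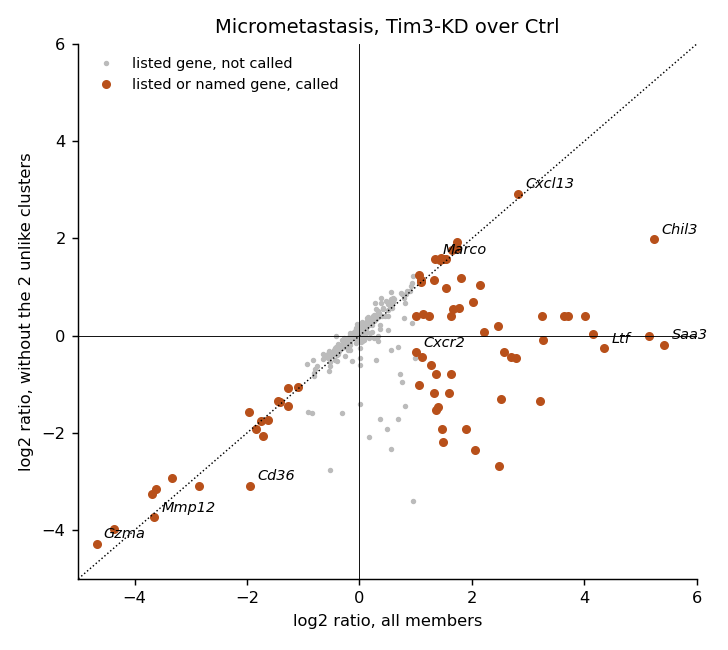
Log2 ratio of micrometastasis Tim3-KD over Ctrl for each listed or named gene, called (orange) or not (grey), with all members on the x axis and without the neutrophil-gene and low-marker clusters on the y axis. Marco and Cxcl13 lie near the dotted diagonal, with ratios of 2.54 and 2.98 and of 7.06 and 7.56, while Saa3 goes from 43.0 to 0.880.

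The comparison of the adjacent libraries asks the same of liver pieces labelled as holding no tumor. The genes of MHC class II, which present peptides to CD4+ T cells, were lower in Kupffer cells with Tim3-KD, together with Ccl2, Gbp4, Egr1 and a minority of the other chemokine, interferon-stimulated and early-response genes, while Cx3cr1, Igfbp4 and the heme transporter Slc48a1 were higher. Of 2544 genes tested, 168 were higher, 6.60%, and 100 were lower, 3.93%. The 268 calls became 99 without members holding markers of other cells and 83 at a minimum of 100 UMIs. Of 18 identity genes tested outside the rule, Marco was the 1 gene called, lower, with a median ratio of 0.952, beside 1.10 over all tested genes. Timd4 had a ratio of 0.959 and Mertk of 0.912. The Ctrl side rests on 29 members, of which 11 had a doublet score above 0.15, against 5 of the 101 Tim3-KD members.

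H2-Aa, the alpha chain of the class II molecule I-A (chr17:34282744-34287823, minus strand), stood at 5275 CPM in the adjacent Ctrl, 1404 in the adjacent Tim3-KD, 2131 in the micrometastasis Ctrl and 2092 in the micrometastasis Tim3-KD library. The adjacent Ctrl library was the highest, the adjacent Tim3-KD library the lowest, and the summed micrometastasis levels had a ratio of 0.982 (0.945 to 1.02). Per member the micrometastasis medians were further apart, at 12.8 UMIs per 10000 with Ctrl and 20.0 with Tim3-KD. The adjacent ratio was 0.266 (0.250 to 0.283). The lower quartile of the adjacent Ctrl members, 35.8 UMIs per 10000, lay above the upper quartile of the adjacent Tim3-KD members, 17.8, but the single members overlapped, from a lowest of 9.34 in Ctrl to a highest of 87.2 in Tim3-KD. After thinning, 100% and 67.3% of members had a UMI. H2-Ab1, the beta chain of the same molecule, stood at 4072, 1268, 1682 and 1629 CPM, an adjacent ratio of 0.311 (0.291 to 0.333). H2-Eb1, the beta chain of I-E, stood at 4154, 1021, 1776 and 1742 CPM, an adjacent ratio of 0.246 (0.229 to 0.264).

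Genes that serve the class II molecules went the same way. H2-DMb1, a chain of the chaperone that loads peptides, stood at 526, 171, 275 and 288 CPM, an adjacent ratio of 0.326 (0.269 to 0.395), and Ciita, the coactivator of class II transcription, stood at 64.0, 21.7, 29.7 and 33.4 CPM, a ratio of 0.340 (0.194 to 0.602). These were the 5 called of 8 antigen presentation genes, all lower, and the list's median ratio was 0.333. Without the 2 clusters H2-Aa stood at 0.284, H2-Ab1 at 0.336 and H2-Eb1 at 0.253. The reference genome is that of C57BL/6J, which carries another MHC haplotype than Balb/c, so levels of class II genes depend on how reads of the Balb/c alleles mapped, in all libraries alike.

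Class II genes share promoter boxes bound by the RFX complex, CREB-family factors and NF-Y, on which CIITA acts. Because 4 class II genes were lower together in adjacent tissue, the 100 bases before the start of those with an entry in the RefSeq table (GRCm38.p6) are shown, 5′ to 3′ on the strand of the gene. Capitals mark TGATTGG, the NF-Y box of class II promoters, and AACTGATGATGCT, the longest run that the H2-Eb1 and H2-DMb1 windows share, which overlaps no TGATTGG in them. H2-Ab1 has no entry there. H2-Aa was read from chr17:34287824-34287923 on the minus strand, H2-Eb1 from chr17:34305767-34305866 on the plus strand and H2-DMb1 from chr17:34153091-34153190 on the plus strand.
H2-Aa: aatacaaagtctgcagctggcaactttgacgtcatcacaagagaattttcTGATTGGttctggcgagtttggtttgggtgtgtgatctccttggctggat
H2-Eb1: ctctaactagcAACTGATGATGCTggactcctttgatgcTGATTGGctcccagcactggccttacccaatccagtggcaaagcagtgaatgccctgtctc
H2-DMb1: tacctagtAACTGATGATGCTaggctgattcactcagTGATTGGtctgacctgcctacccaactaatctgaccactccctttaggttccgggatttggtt

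TGATTGG began 50, 61 and 63 bases before the start of H2-Aa, H2-Eb1 and H2-DMb1. AACTGATGATGCT began 89 bases before H2-Eb1 and 92 before H2-DMb1. Searched on both strands in the same 100 bases of all 32851 genes in the table, TGATTGG was found in 4.58% and AACTGATGATGCT in 2 windows, the same 2 it was taken from. A match describes the letters of the reference and is not a measured binding site.

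Some chemokine and early-response genes were also lower in the adjacent Tim3-KD members. Ccl2, which draws monocytes, stood at 328, 60.5, 273 and 281 CPM, an adjacent ratio of 0.184 (0.139 to 0.244), with 52.8% of the adjacent Ctrl UMIs in 3 members. Ccl9, a chemokine of macrophages, stood at 48.0, 10.2, 187 and 332 CPM, a ratio of 0.212 (0.0996 to 0.446). With Ccl7 at 0.285, where 3 members held 88.0% and 85.7% of the UMIs, these were the 3 lower of 12 chemokine genes, and the platelet factor gene Pf4, at 2.52, was higher. The inflammatory cytokine Tnf stood at 77.4, 23.8, 88.8 and 126 CPM, a ratio of 0.307 (0.182 to 0.521), and Socs3, a brake on cytokine signals, had a ratio of 0.335. Ccl2 and Tnf stood at unlike levels in the clusters. The low-depth cluster, which held 52.5% of adjacent Tim3-KD and 20.7% of adjacent Ctrl members, stood at 16.8 CPM for Ccl2 and 6.47 for Tnf, against 278 and 106 in the Marco cluster, and the part of the mix in the ratios was not tested. For Ccl2, Ccl9 and Tnf the adjacent Tim3-KD library was the lowest of the 4.

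Of 20 early-response and stress genes, Egr1, Ier3, Hspa1a, Hsph1 and Gadd45b were lower and none was higher, with a median ratio of 0.683. Egr1 stood at 1868, 692, 979 and 948 CPM, a ratio of 0.370 (0.336 to 0.408), and Hspa1a, a heat shock protein, had a ratio of 0.475. Here too the low-depth cluster stood apart, at 31.1 CPM for Egr1 and 38.8 for Hspa1a against 1173 and 898 in the Marco cluster. Of 39 interferon-stimulated genes, Gbp3, Gbp4, Gbp5, Zbp1, Slfn1 and Ms4a4c were lower and none was higher, with a median of 0.862. Without the 2 clusters Ms4a4c was at 2.02 and was not called. Gbp4 had a ratio of 0.359 (0.262 to 0.493) and Gbp5 of 0.322, while Ifi44 stood at 352 and 374 CPM. Of the 6 lower genes, 3 encode guanylate-binding proteins, which interferon gamma induces.

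Cx3cr1, the fractalkine receptor, known more for monocytes and for macrophages outside the sinusoids (chr9:119901616-120069879, minus strand), stood at 85.4, 421, 129 and 67.5 CPM. The adjacent Tim3-KD library was the highest, with a ratio over Ctrl of 4.93 (3.46 to 7.28), and 4.30 without the 2 clusters. A UMI was found in 31.0%, 65.3%, 41.3% and 22.8% of members and, after thinning, in 10.3%, 24.8%, 15.7% and 9.7%, against at most 0.8% of B and T cells. Of the 620 adjacent Tim3-KD UMIs, 498 lay in the 36 members of the deep cluster that Cx3cr1 leads, which held 2 Ctrl members. In the low-depth cluster, with 53 Tim3-KD and 6 Ctrl members, Cx3cr1 stood at 132 CPM against 255 with Ctrl, on 54 and 6 UMIs. In the Marco cluster, with 11 and 18 members, it stood at 343 CPM against 88.7 with Ctrl, on 66 and 22 UMIs. Of 4 monocyte genes tested in adjacent tissue, Cx3cr1 was higher and Plac8, at 0.162, lower, and the list had a median ratio of 1.27. Igfbp4, a binding protein of insulin-like growth factors, stood at 13.3, 89.7, 14.5 and 4.71 CPM, a ratio of 6.72 (2.81 to 21.0).

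Single genes of iron, lipid and debris handling were higher in the adjacent Tim3-KD members. Slc48a1, which carries heme out of the phagolysosome, stood at 85.4, 245, 201 and 150 CPM, an adjacent ratio of 2.86 (1.99 to 4.25), and was the 1 called of 10 iron genes. Slc40a1 stood at 1331, 2452, 1851 and 1248 CPM, and its ratio of 1.84 (1.68 to 2.03) did not reach the limit. Stab1, a scavenger receptor, had a ratio of 2.80, and Gas6, the ligand that bridges dying cells to Mertk, of 3.15 (1.54 to 7.50), and of 5.16 without the 2 clusters. Trem2 had a ratio of 2.14 (1.17 to 4.29) and Cd209f, a lectin, of 3.27 (2.22 to 4.98), with 2 Tim3-KD members at the cap. Of 24 scavenger and clearance receptors, Stab1, Gas6 and Cd209f were higher and Marco, Clec4e and Fcgr2b lower, with a median of 1.07, and of 13 lipid genes Scd1 and Mylip were higher. The calls of Marco, Clec4e, Fcgr2b, Scd1 and Mylip were lost without the 2 clusters. Of 13 genes of the niche signals the TGF-beta receptor Tgfbr1 was higher, at 2.22 (1.15 to 4.78), and Tgfb1 itself, from the inflammatory list, was at 2.55 (1.44 to 4.91).

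Marco was lower in the adjacent Tim3-KD members, at a ratio of 0.493 (0.373 to 0.657), but 89.7% of its adjacent Ctrl UMIs lay in 3 members, 2 of which had reached the cap, as had 5 Tim3-KD members. After thinning, 17.2% and 14.9% of members had a UMI, and without the 2 clusters the ratio was 0.732 and was not called. The gene of highest ratio, Erdr1, had 83 UMIs against 0, at least 7.05-fold, but stood at 47.3 and 0.4 CPM in the B and T cells of those libraries and so was not particular to Kupffer cells. Acacb, an acetyl-CoA carboxylase, had 78 UMIs against 3, a ratio of 6.62 (2.18 to 32.8). The 8 lowest genes were S100a4, Hdc, Wfdc21, Serpina3g, G0s2, Tgtp2, Clec4e and Plac8, where S100a4 had 36 and 2 UMIs and the other 7 had ratios of 0.0386 to 0.162. Without the clusters Serpina3g, Tgtp2 and Plac8 were still called.

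**Figure D5:**
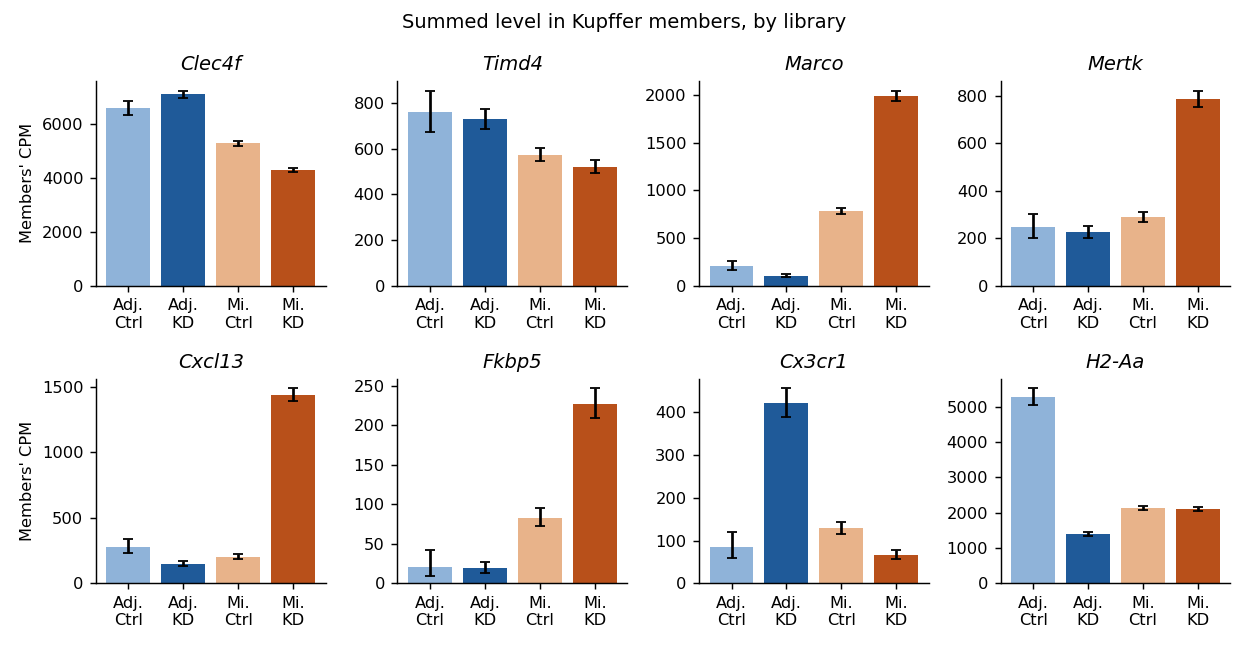
Level (CPM, linear axis with its own range per gene) of 8 genes in the summed Kupffer cells of each day-3 library, with 95% intervals that cover counting error only. Marco, Mertk, Cxcl13 and Fkbp5 are highest in micrometastasis Tim3-KD (1989, 786, 1441 and 227 CPM), Cx3cr1 is highest in adjacent Tim3-KD (421 CPM), H2-Aa is highest in adjacent Ctrl (5275 CPM), Timd4 lies between 520 and 760 CPM, and Clec4f is shown as a gene of the rule.

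Kupffer cells of micrometastasis were next set against those of adjacent tissue with the same tumor line. The 2 sites were scaled in separate matrices, so levels were set side by side after the scores had been turned back into UMIs, on the 2255 genes both held. The site comparisons share libraries with the comparisons above and are no independent evidence of them. With Ctrl, 49 of 1532 tested genes were higher in micrometastasis, 3.20%, and 88 were lower, 5.74%. With Tim3-KD, 297 of 1708 were called, 17.4%, with 195 higher, 11.4%, and 102 lower, 5.97%, and 188 were called without the neutrophil-gene and low-marker clusters. At a minimum of 100 UMIs the counts were 70 with Ctrl and 143 with Tim3-KD.

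Some genes were higher in micrometastasis with both lines. Marco had ratios of 3.77 (3.01 to 4.79) with Ctrl and 19.4 (16.5 to 22.9) with Tim3-KD, which are upper bounds because of the capped adjacent members, and the Ctrl ratio was 5.69 without the 2 clusters. Fkbp5 had ratios of 3.88 (1.94 to 9.11) and 11.9 (8.18 to 18.1). Ccl6, a chemokine of resident macrophages, stood at 731, 603, 1583 and 1839 CPM, with ratios of 2.17 (1.92 to 2.46) and 3.05, and Ccl9 had ratios of 3.89 (2.44 to 6.62) and 32.6 (19.6 to 58.5). Cxcl1, which draws neutrophils, had ratios of 2.15 and 3.24. After thinning, a UMI of Ccl9 was found in 6.9%, 3.0%, 18.5% and 36.9% of members.

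A part of the interferon-stimulated genes was lower in micrometastasis. With Ctrl, 13 of 36 were lower and none was higher, with a median ratio of 0.649 beside 0.977 over all tested genes: Mx1, Cmpk2, Ifi44, Stat2, Gbp2, Gbp3, Gbp4, Gbp5, Cxcl10, Ifi47, Slfn1, Ms4a4c and Ddx60. Without the 2 clusters Ms4a4c was at 1.66 and was not called. With Tim3-KD, Ifit3b, Mx1, Ifi44, Rtp4 and Ddx60 were lower of 37, and Slfn1 and Slfn4 were higher, where the calls of Ddx60, Slfn1 and Slfn4 were lost without the clusters, at 0.535, 0.657 and 1.84. Ifi44 stood at 352, 374, 151 and 152 CPM, high in both adjacent libraries and low in both micrometastasis libraries, with ratios of 0.428 (0.351 to 0.526) and 0.406 (0.355 to 0.463). The Cxcl10 ratio of 0.379 with Ctrl rests on few cells, since 3 members held 89.6% of its adjacent Ctrl UMIs.

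MHC class II differed by site with Ctrl. H2-Aa had a ratio of 0.404 (0.384 to 0.425), H2-Ab1 of 0.413, H2-Eb1 of 0.427 and Ciita of 0.464, and these were the 4 called of 7 antigen presentation genes. Ciita, at 0.506, lost its call without the 2 clusters. With Tim3-KD none of 7 was called and H2-Aa was at 1.49. Of the early-response and stress genes, Atf3, Dusp1, Klf4, Hspa1a, Hsph1 and Cebpb were lower of 22 with Ctrl, and Egr2 was higher, at 4.40 (1.84 to 13.7). Trem2 had a ratio of 3.57 (2.01 to 6.98) with Ctrl.

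With Tim3-KD the higher genes included Mertk at 3.47 (3.09 to 3.91), Cxcl13 at 9.68 (8.45 to 11.1), Cfb at 3.29 (2.62 to 4.18), Tnf at 5.28 (3.72 to 7.72), Ccl2 at 4.64 (3.72 to 5.85) and Cd274, the ligand of the checkpoint receptor PD-1, at 3.42 (2.38 to 5.04). The Tim3-KD members of the 2 sites differed in their mix of clusters, with 52.5% of the adjacent and 1.49% of the micrometastasis members in the low-depth cluster. That cluster stood at 6.47 CPM for Tnf, 16.8 for Ccl2 and 12.9 for Cd274, against 106, 278 and 68.6 in the Marco cluster, and the part of this in the ratios was not tested. Of 13 chemokine genes, Ccl2, Ccl6, Ccl7, Ccl9, Cxcl1 and Cxcl13 were higher and none was lower, with a median of 1.62. Of 21 early-response and stress genes, Egr3, Ier3, Dusp2 and Gadd45b were higher and none was lower, and Egr3 lost its call without the 2 clusters. All 12 neutrophil genes and 6 of 8 cell cycle genes were higher. The 2 clusters held 1 and 52 members of the adjacent and micrometastasis Tim3-KD libraries. Without them the neutrophil list summed to 58.0 CPM over 14 measured genes and 86.6 CPM over 13, with Ltf at 0 and 21 UMIs and Stfa2l1 at 0 and 13. Of the 6 cell cycle genes, Mki67, Top2a, Stmn1, Birc5, Ube2c and Pclaf, none was called without the 2 clusters. Mki67 was then at a ratio of 1.10, Top2a at 0.920 and Stmn1 at 0.563, while Pclaf stood at 0 and 2.69 CPM, Birc5 at 0 and 0.538 and Ube2c at 2.05 and 0. Cx3cr1 was lower, at 0.160 (0.135 to 0.190), as were Igfbp4 at 0.0525, Cd36 at 0.188 (0.0857 without the clusters) and Irf4, a factor of alternative activation, at 0.231.

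Of 1224 genes tested in both Tim3-KD over Ctrl comparisons, 11 were called in opposite directions at the 2 sites and 1 in the same direction. Marco, Cfb, Clec4e, Fgb, G0s2, Hdc, Resf1 and Slfn1 were lower with Tim3-KD in adjacent tissue and higher in micrometastasis. Ccdc85b, Cd83 and Igfbp4 went the other way. Slamf1, a receptor of the SLAM family, was higher at both sites. The difference between the sites was not tested.

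Kupffer cells picked by the same rule at day 12 give a side view of these genes, without a comparison since the matrix, day and lesion differ. The rule gave 847 of 4913 cells in the macrometastasis Ctrl library, 17.2%, and 964 of 5502 in the macrometastasis Tim3-KD library, 17.5%. Their median marker scores were 2.04 and 2.21, and 353 and 117 of them scored below 2. These members lie nearer the limit than those of day 3, and unequally so in the 2 libraries. Marco stood at 212 and 461 CPM there, Cxcl13 at 238 and 474 CPM, and Cd163 at 537 and 875 CPM, each with the higher value in Tim3-KD. Mertk went the other way, at 705 and 305 CPM, as did H2-Aa, at 3287 and 1737 CPM, and Ccl2, at 269 and 163 CPM. Cx3cr1 stood at 156 and 142 CPM, Timd4 at 640.5 and 692 CPM and Clec4f at 5919 and 7211 CPM.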

How the data were processed

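CD45+ liver cells were profiled with 10x 3' v3.1 chemistry in 6 libraries, 1 per group, of which the 4 of day 3 were compared. Per the submitters' processing notes and the study's methods, reads were trimmed (Trim Galore 0.4.3) and mapped with STAR 2.7.7a to GRCm38, UMIs over exons and introns were counted, and doublets were removed with scrublet. The authors deposited scaled scores, 1 matrix per site, of 4486 (adjacent), 2669 (micrometastasis) and 2643 (macrometastasis) genes, each centered, divided by its SD and capped at 10.

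The scores were inverted to UMIs: 99.9997%, 99.9999% and 99.9972% of values came within 0.05 of a whole number. Capped values, 0.144% to 0.160%, are lower bounds. Features of several genes were left out, and 0 value columns lacked a sample. Members were taken by the rule on the deposited scores. UMIs were summed per library, and a gene with at least 30 UMIs was called where its ratio was at least 2-fold with a 95% interval without 1, with counts under 3 raised to 3 in the ratio. Exact intervals cover counting error only. No member was removed as a doublet, but a score (2 simulated doublets per cell, 30 components) was computed. It was above 0.15 in 11 adjacent Ctrl, 5 adjacent Tim3-KD, 9 micrometastasis Ctrl and 16 micrometastasis Tim3-KD members. Clustering used 20 components, 15 neighbors and resolution 0.3, and depth was equalized by thinning to 1500 UMIs. Named genes were list members and the 8 highest and 8 lowest called per comparison, leaving out mitochondrial, ribosomal, haemoglobin, immunoglobulin, T cell receptor, Xist, Y-linked and Gm or Rik genes. Members, lists and named genes were chosen with earlier results of these data known. Genes called in opposite directions at both sites and the cluster summaries were picked after their values were seen. Gene positions are from GENCODE and promoters from RefSeq. Analyses used Python 3.11.15, numpy 2.4.6, scipy 1.17.1, pandas 2.3.3, scanpy 1.11.5, scikit-learn 1.9.0 and matplotlib 3.10.9, and the statistics were checked on simulated data.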

Additional observations from a re-analysis of the deposited data

Results flagged for a closer look

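These genes of Kupffer cells were called in opposite directions by Tim3-KD over Ctrl at the 2 sites of day 3, with each site's 1 library per group. The difference between the sites was not tested. Marco, a scavenger receptor, had ratios of 0.493 in adjacent tissue and 2.54 in micrometastasis, and Cfb, complement factor B, of 0.292 and 2.15. For Fgb, a liver-made clotting protein, they were 0.389 and 3.33, and for Resf1, a silencing factor, 0.366 and 2.05. Clec4e had ratios of 0.144 and 3.11, G0s2 of 0.127 and 3.74, Hdc, which makes histamine, of 0.0386 and 2.58, and Slfn1 of 0.208 and 2.17. Hdc and G0s2 are on the neutrophil list, and without the neutrophil-gene and low-marker clusters the micrometastasis ratio of Clec4e was 1.32, that of Slfn1 0.733 and that of Hdc 0.577, none of them called, and that of G0s2 0.264. In adjacent tissue, without those clusters, the Ctrl UMIs of Clec4e, G0s2 and Hdc came to 2, 0 and 2, the ratio of Marco was 0.732 and that of Fgb 0.504, and none of these was called. With all members, 3 members held 89.7% of the adjacent Ctrl UMIs of Marco, 91.3% of those of Clec4e, 100% of those of G0s2 and 97.0% of those of Hdc. In the other direction, Ccdc85b had ratios of 3.57 and 0.278, Cd83, a regulator of antigen presentation, of 2.32 and 0.474, and Igfbp4 of 6.72 and 0.326. In CPM, in the order adjacent Ctrl, adjacent Tim3-KD, micrometastasis Ctrl and micrometastasis Tim3-KD, Cd83 stood at 133, 309, 261 and 124, Ccdc85b at 5.34, 28.5, 18.4 and 5.10, and Fgb at 50.7, 19.7, 21.9 and 73.0.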

How the results depend on the processing

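No paired analysis was possible because each group had 1 library and the labels give no replicate numbers, and no replicate could be left out. Leaving out members with UMIs of another cell type's markers, most of them hit by the hepatocyte list led by Trf, changed the adjacent share difference from 17.0 to 4.74 points and the micrometastasis one from -0.291 to -2.52. The latter was 2.66 among cells without neutrophil genes. The share of cells without neutrophils as planned was not run, since S100a8, S100a9 and Retnlg were not in the matrices used here. That setting, leaving out the neutrophil-gene and low-marker clusters, and leaving out genes with a capped member were chosen after seeing the data. In micrometastasis 141 genes were called, 83 without members holding other cells' markers, 86 without both clusters (56 of them among the 141) and 54 at a minimum of 100 UMIs. In adjacent tissue 268 were called, 99 without such members, 83 at 100 UMIs and 553 from means over members without an interval. Micrometastasis over adjacent gave 137 with Ctrl, 70 at 100 UMIs and 256 from means over members. With Tim3-KD it gave 297, 188 without both clusters and 143 at 100 UMIs. TMM scaling shifted no comparison by over 0.10 (log2), but the Ctrl site split went from 49 higher and 88 lower to 37 and 107. Of the named ratios under alternatives, 620 stayed close, 81 shifted and 11 reversed. On the log2 scale, Ltf in micrometastasis became -0.31 without members of high doublet score, -0.33 without the neutrophil-gene cluster and -0.25 without both, and Saa3 -0.18 without both. For Ctrl micrometastasis over adjacent, Ms4a4c became 0.06 at a marker limit of 0.5, 0.19 without the low-marker cluster and 0.73 without both, S100a4 1.03 and 0.80 under those last settings, and Stfa2l1 -0.28 and Stfa2 -0.10 under 1 rule of UMIs for both matrices. For results that changed, the cause was not tested. The adjacent Ctrl library rests on 29 members.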

Other observations

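Hepatocyte RNA was higher in the members than in lymphocytes and differed by library in both. Alb, the main plasma protein, stood at 253, 319, 77.4 and 257 CPM in the members of the adjacent Ctrl, adjacent Tim3-KD, micrometastasis Ctrl and micrometastasis Tim3-KD libraries, against 6.3, 7.8, 2.6 and 6.3 CPM in the B and T cells of the same libraries. Its micrometastasis ratio of Tim3-KD over Ctrl was 3.33 (2.83 to 3.92), and 3.78 without the neutrophil-gene and low-marker clusters. Apoa1, a lipoprotein made by hepatocytes, stood at 37.4, 46.2, 20.7 and 60.05 CPM, a ratio of 2.90 (2.11 to 4.04), against 1.48, 2.35, 1.24 and 2.29 CPM in the B and T cells. The micrometastasis Ctrl library was the lowest in Kupffer cells and in lymphocytes.

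Hmox1, which breaks down heme, stood at 878, 1023, 1679 and 1293 CPM, higher in both micrometastasis libraries, with a Ctrl ratio over adjacent tissue of 1.91 that was not called. Lpl, lipoprotein lipase, stood at 251, 479, 362 and 231 CPM, highest in the adjacent Tim3-KD library, with a ratio of 1.91 (1.54 to 2.39) over its Ctrl and of 0.638 (0.574 to 0.708) in micrometastasis.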
